A study of Homo sapiens with 2 samples.

Results

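YAP1, its DNA-binding partner TEAD1, the kinase LATS2 and 4 genes known as direct YAP targets, ANKRD1, CTGF, CYR61 and AMOTL2, were followed in Hep3B cells exposed to the compound A4368 and in untreated Hep3B cells. The genes were chosen by symbol, with earlier results of these libraries known, and all 7 had a value among the 11511 genes of the table. Hep3B is an established human hepatocellular carcinoma line, obtained from ATCC per the labels. One culture received 25 µM A4368, a compound named only by this code, for 24 h and gave 1 library. The other received no treatment and gave 1 library, and both were grown in DMEM with serum. The sources used here name no vehicle. Neither group has a replicate, so the variation of repeated cultures is unknown, no test was possible and each difference below is one between these libraries.

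The Hippo pathway is a kinase cascade that restrains the transcriptional coactivator YAP. The kinases STK3 and STK4, with the adaptor SAV1, activate LATS1 and LATS2, which phosphorylate YAP and its relative TAZ (encoded by WWTR1) so that they stay in the cytoplasm. Unphosphorylated YAP enters the nucleus, binds the TEAD factors and raises the transcription of genes such as CTGF and CYR61, and AMOTL2 and LATS2 are targets that feed back as inhibitors. In the liver the pathway limits organ growth, and YAP is often active in hepatocellular carcinoma. RNA-seq measures the messenger of each gene and does not report where the YAP protein is or whether it is phosphorylated.

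The promoters of the members are shown because TEAD factors bind a short core, CATTCC or GGAATG on the other strand, and the members can be compared by where these letters lie. RefSeq promoter windows (build GRCh38.p14, 250 bases before to 50 after a start) were matched for 5 of the 7 genes, CTGF under its newer symbol CCN2, and CYR61 and TEAD1 were not matched. The first pair of sequences gives the bases before the start of the target genes with the most matches, and the others give the stretch around the single match. Capitals mark the TEAD core, and each sequence reads 5′ to 3′ on the strand of the gene.
ANKRD1, chr10:90921088-90921337, minus strand: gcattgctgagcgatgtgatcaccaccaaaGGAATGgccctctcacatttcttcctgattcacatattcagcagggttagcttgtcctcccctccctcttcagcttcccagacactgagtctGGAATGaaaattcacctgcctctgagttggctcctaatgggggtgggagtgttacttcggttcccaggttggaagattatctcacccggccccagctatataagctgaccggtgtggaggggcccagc
CTGF, chr6:131951373-131951622, minus strand: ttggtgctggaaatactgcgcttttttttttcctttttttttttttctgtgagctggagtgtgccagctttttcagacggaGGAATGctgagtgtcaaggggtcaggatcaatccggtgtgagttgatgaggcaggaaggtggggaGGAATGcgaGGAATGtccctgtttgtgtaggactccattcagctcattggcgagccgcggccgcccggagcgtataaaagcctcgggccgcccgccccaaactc
AMOTL2, chr3:134374474-134374553, minus strand: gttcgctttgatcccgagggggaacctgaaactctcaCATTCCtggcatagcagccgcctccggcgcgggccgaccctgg
YAP1, chr11:102110248-102110327, plus strand: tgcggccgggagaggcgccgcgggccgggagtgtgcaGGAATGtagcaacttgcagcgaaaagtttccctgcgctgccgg
LATS2, chr13:21061560-21061589, minus strand: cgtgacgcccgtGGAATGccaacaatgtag

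CTGF held 3 matches to the TEAD core, at positions -169 to -164, -104 to -99 and -95 to -90 relative to the start. ANKRD1 held 2, at -220 to -215 and -128 to -123. AMOTL2 has 2 windows, and its downstream start had 1 match at -69 to -64 while the upstream window had none. YAP1 had 1 match at -162 to -157, and the match of LATS2 lay after the start, at 10 to 15. Thus 5 of the 6 member windows held the core, against 14.0% of all 35116 windows and 11.5% of the 13636 windows of genes averaging at least 1 FPKM over the libraries. At least 3 matches, as in CTGF, were found in 0.128% of all windows, and at least 2, as in ANKRD1, in 1.37%. Counts of matches are a description of letters and not of bound sites.

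The core of AP-1, TGANTCA, which reads the same on both strands, was searched in the same windows, because AP-1 and TEAD factors often bind near each other. It was found once, in ANKRD1 at -195 to -189 between the TEAD cores, and in 7.71% of all windows. The CArG box of SRF was in none of the member windows and in 1.29% of all windows. No match in 1 motif overlapped a match in another.

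**Figure D1:**
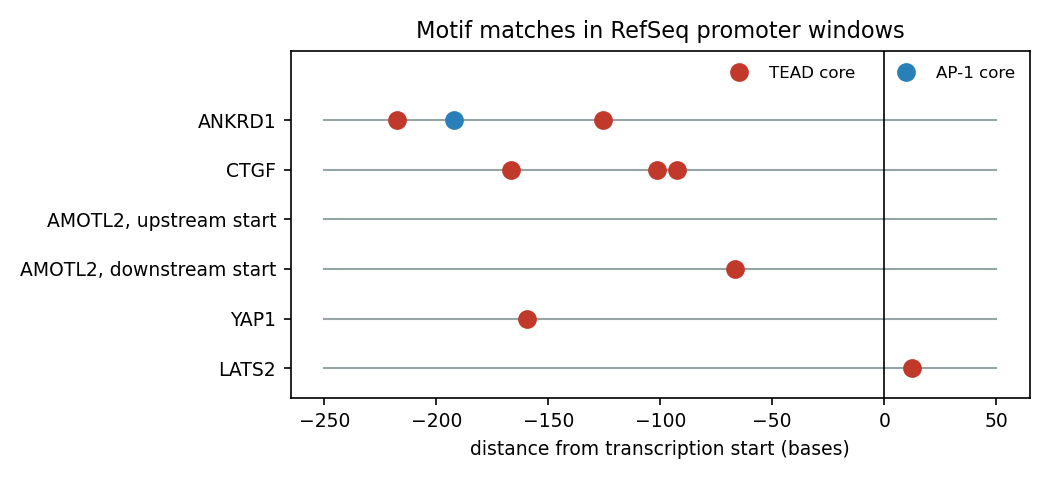
Positions of TEAD core (red) and AP-1 core (blue) matches in the RefSeq promoter windows of 5 members, in bases from the transcription start, with 1 line for each window. CTGF has 3 TEAD cores and ANKRD1 has 2 with an AP-1 core between them, and the upstream start of AMOTL2 has none.

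All 7 genes had lower values in the A4368 library, but by very different amounts. The target genes ANKRD1, CTGF, CYR61 and AMOTL2 were between 1.60-fold and 2.23-fold lower, whereas YAP1, TEAD1 and LATS2, the last of which is also a known target, were between 1.06-fold and 1.18-fold lower. Values are FPKM, the fragments counted per kilobase of a transcript relative to the mapped total of the library, so that levels can be compared between genes. The library ratio is log2 of the A4368 value plus 1 over the control value plus 1, and limits of 1.5-fold and 2-fold were set on that scale. Of the 11238 genes averaging at least 1 FPKM, 2.12% were lower by at least 1.5-fold and 1.08% higher by that much, and 48.0% had a lower and 52.0% a higher value of any size. The count of lower genes past 1.5-fold was 238, against 121 higher. With both libraries scaled to equal sums that leave out the 50 most abundant genes, 260 were lower and 259 higher. This scaling also raised the values against the unchanged pseudocount of 1, so the counts do not show the effect of equal sums alone. A pseudocount of 0.1 without scaling gave 369 lower and 259 higher. Of the 7 genes, 4 passed the 1.5-fold limit downward and 1 the 2-fold limit, which 0.436% of all genes passed downward. With a pseudocount of 5 in place of 1, ANKRD1 and CTGF remained past 1.5-fold, while CYR61 and AMOTL2 had ratios of -0.58 and -0.51. Over all genes, 78 were past 1.5-fold downward at that setting, in place of 238. With the pseudocount of 1, the median ratio of the 7 genes was -0.64, beside a median of 0.01 over all genes. Since the genes were proposed with these ratios known, the counts describe them and support nothing further.

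**Figure D2:**
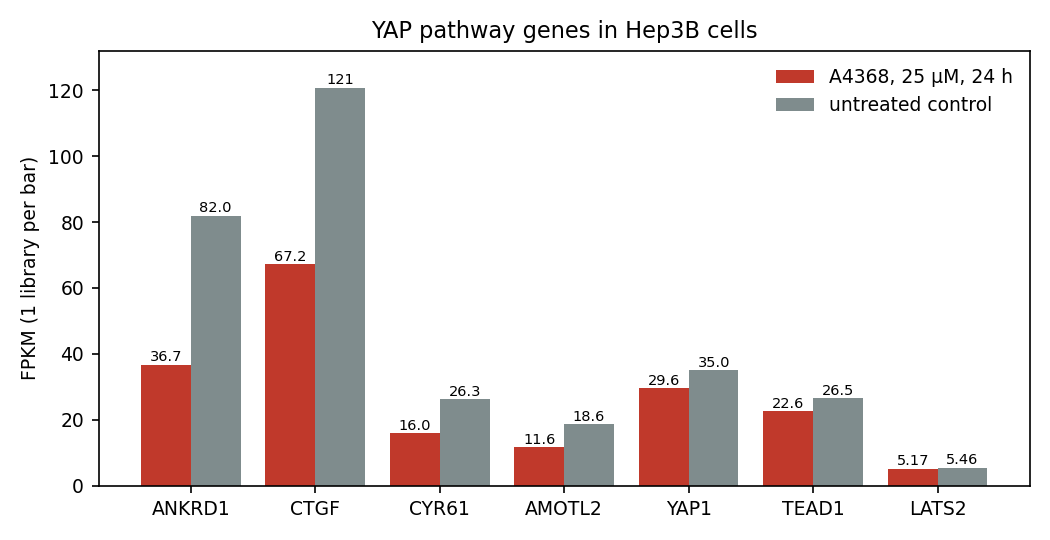
FPKM of the 7 genes in the A4368 library (red, left bar) and the untreated control library (grey, right bar), with 1 library per bar and no error. ANKRD1 and CTGF differ most, at 36.7 and 67.2 FPKM with A4368 against 82.0 and 121 FPKM in the control, and LATS2 is nearly level.

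YAP1, the coactivator itself, stood at 29.6 FPKM in the A4368 library and 35.0 FPKM in the control. The log2 ratio was -0.24, within the 1.5-fold limit, and 11.1% of the 3635 genes whose mean level was within 2-fold of that of YAP1 had a ratio as low or lower. TEAD1, a TEA domain factor that brings YAP to DNA, stood at 22.6 FPKM with A4368 and 26.5 FPKM in the control, with a log2 ratio of -0.22. TEAD1 and YAP1 thus differed by similar factors, and the ratio of TEAD1 to YAP1 within a library was 0.764 with A4368 and 0.757 in the control. YAP1 exons overlap those of an antisense transcript, AP000942.2, in GENCODE release 29, and 11.1% of the sequence of YAP1 is shared with other transcripts. The sources used here do not say whether the libraries keep strand, so reads of the pair cannot be told apart.

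LATS2, the kinase that phosphorylates YAP and is itself a YAP target, was the member with the smallest difference. It stood at 5.17 FPKM in the A4368 library and 5.46 FPKM in the control, a log2 ratio of -0.07. Of 3447 genes at a similar level, 32.3% had a ratio as low or lower, so LATS2 lay within the bulk of genes. LATS1, the other kinase of the pair, was at 8.40 FPKM with A4368 and 7.50 FPKM in the control.

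AMOTL2 encodes an angiomotin family protein that holds YAP at cell junctions and is a feedback target of YAP. It was at 11.6 FPKM in the A4368 library and 18.6 FPKM in the control, with a log2 ratio of -0.64. Among 4572 genes within 2-fold of its level, 65 had a ratio as low or lower, counting AMOTL2 itself (1.42%). The exons of AMOTL2 overlap a pseudogene on the same strand, RPL39P5, and 2.57% of the sequence of AMOTL2 is shared with other transcripts. The relatives of AMOTL2 differed less. AMOT had a log2 ratio of -0.01, and AMOTL1 was at 5.31 FPKM with A4368 and 6.03 FPKM in the control.

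CTGF and CYR61 encode secreted matricellular proteins of the CCN family, which bind integrins and matrix and are the target genes most often used as a readout of YAP. CTGF was the most abundant member in both libraries, at 67.2 FPKM with A4368 and 121 FPKM in the control, a difference of -53.6 FPKM and a log2 ratio of -0.84. CYR61 was at 16.0 FPKM with A4368 and 26.3 FPKM in the control, with a log2 ratio of -0.68. The CCN genes differed by similar factors, and the ratio of CTGF to CYR61 was 4.21 in the A4368 library and 4.60 in the control. For CTGF, 9 of 1590 genes at a similar level had a ratio as low or lower (0.566%), and for CYR61 42 of 4357 (0.964%). The exons of CTGF overlap an antisense transcript, AL133346.1, which shares part of the 6.24% of CTGF sequence found in other transcripts, and CYR61 shares none. The other 4 genes of the CCN family, NOV and WISP1 to WISP3, had no value.

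ANKRD1 encodes an ankyrin repeat protein of the nucleus and, in muscle, of the sarcomere, and had the lowest ratio of the members. It was at 36.7 FPKM in the A4368 library and 82.0 FPKM in the control, a change of -55.2% and a log2 ratio of -1.14. ANKRD1 ranked 24 from the lowest ratio among the 11238 genes, and, counting ANKRD1 itself, 5 of 2415 genes at a similar level had a ratio as low or lower (0.207%). ANKRD23, a relative of ANKRD1 at the edge of the filter, was at 1.71 FPKM with A4368 and 1.02 FPKM in the control, and 75.3% of its sequence is shared with other transcripts. ANKRD2 had no value.

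**Figure D3:**
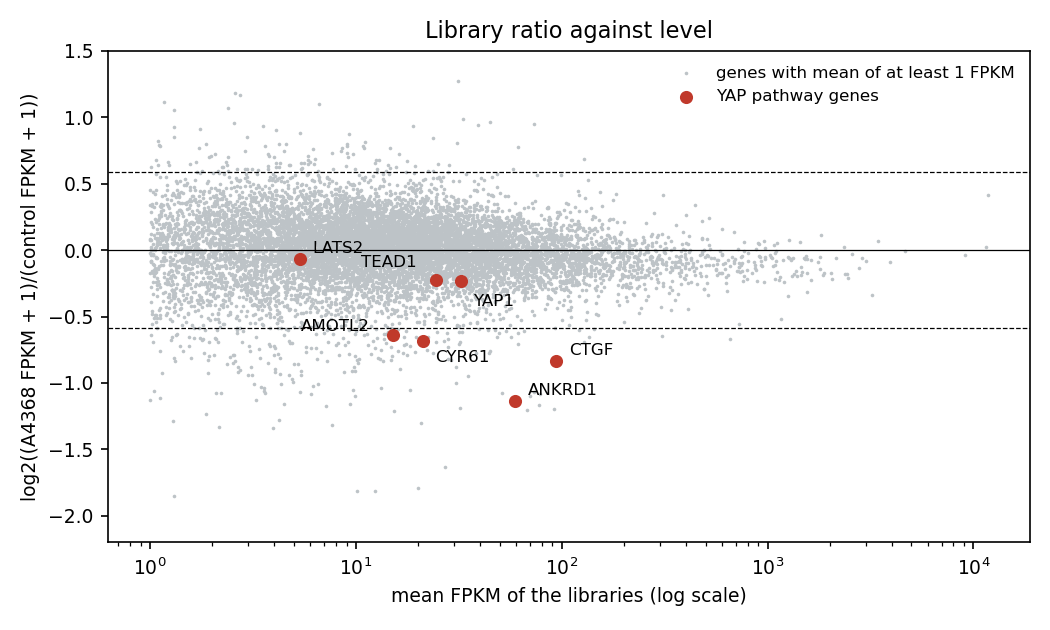
Library ratio, log2 of A4368 FPKM plus 1 over control FPKM plus 1, against the mean FPKM of the libraries on a log axis, for genes averaging at least 1 FPKM (grey) and the 7 members (red). Dashed lines mark 1.5-fold and 9 genes lie beyond the plotted range. ANKRD1 and CTGF lie below nearly all genes of their level, and YAP1, TEAD1 and LATS2 lie inside the cloud.

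The order of the levels was the same in both libraries. CTGF was highest, followed by ANKRD1, YAP1, TEAD1, CYR61, AMOTL2 and LATS2. TEAD1 and CYR61 were next to each other in the control, at 26.5 and 26.3 FPKM, and stood further apart with A4368, at 22.6 and 16.0 FPKM. With 1 library of each kind, no neighbours in this order can be separated from the spread of repeated cultures.

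Dividing each member by YAP1 in the same library removes any difference in scaling between the libraries. ANKRD1 was at 1.24 times the FPKM of YAP1 in the A4368 library and 2.34 times in the control. CTGF was at 2.27 times with A4368 and 3.45 times in the control. CYR61 was at 0.539 times the level of YAP1 with A4368 and 0.750 times in the control. All 3 were lower against YAP1, as was AMOTL2, at 0.392 times with A4368 and 0.530 times in the control. LATS2 was slightly higher against YAP1, at 0.175 times with A4368 and 0.156 times in the control. Summed, ANKRD1, CTGF, CYR61 and AMOTL2 came to 131 FPKM with A4368 and 248 FPKM in the control, or 1.88-fold lower.

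**Figure D4:**
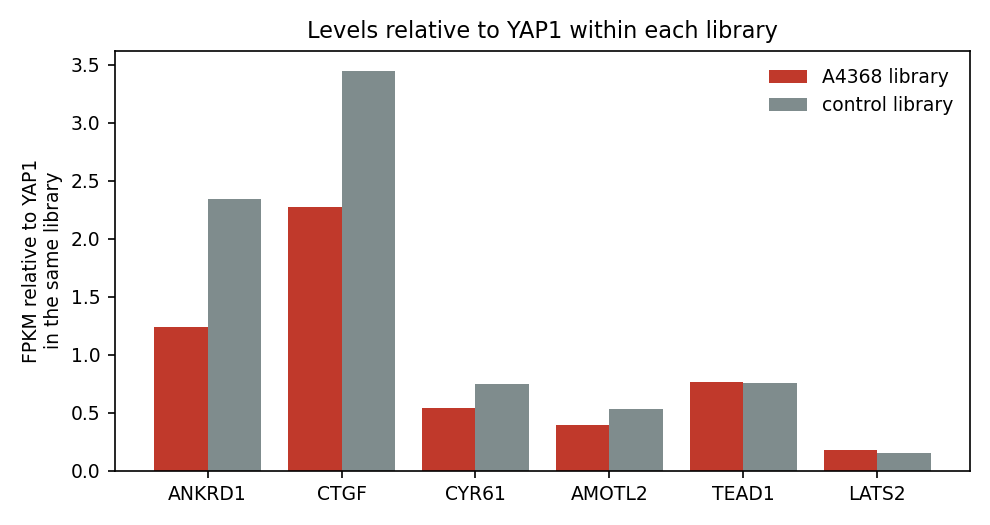
FPKM of 6 members divided by the FPKM of YAP1 in the same library, in the A4368 library (red, left bar) and the control library (grey, right bar), with 1 library per bar. The bars of ANKRD1, CTGF, CYR61 and AMOTL2 are lower with A4368, at 1.24 against 2.34 for ANKRD1. Those of TEAD1 and of LATS2, which is also a known target, are not.

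The coactivator and TEAD genes outside the members were lower too. All 8 measured genes of this list of 10, YAP1 and TEAD1 included, were lower, beside 48.0% of all genes. The median log2 ratio of the list was -0.23, and 1 passed the 1.5-fold limit, beside 2.12% of all genes. That gene was TEAD2, a paralog of TEAD1, at 17.2 FPKM in the A4368 library and 30.0 FPKM in the control. WWTR1, the gene for TAZ, was at 7.81 FPKM with A4368 and 11.5 FPKM in the control, a log2 ratio of -0.51. YAP1 was therefore 3.79 times as high as WWTR1 with A4368 and 3.04 times as high in the control. TEAD3 and TEAD4 had ratios of -0.10 and -0.09. The sum over the 4 TEAD genes was 73.3 FPKM with A4368 and 92.4 FPKM in the control. VGLL3, a TEAD cofactor, was near the filter at 1.04 FPKM with A4368 and 1.51 FPKM in the control.

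The kinases and adaptors above YAP did not share this direction. Of 17 measured genes, LATS2 included, 10 were higher and 7 lower, beside 52.0% and 48.0% of all genes. The median log2 ratio of the list was 0.04. None passed the 1.5-fold limit, which 2.12% of all genes passed downward and 1.08% upward. SAV1, the scaffold of the upstream kinases, had the largest ratio at 4.69 FPKM in the A4368 library and 3.53 FPKM in the control, and 21.3% of its sequence is shared with other transcripts. The kinase gene TAOK2 was at 13.3 FPKM with A4368 and 10.9 FPKM in the control. NF2, which encodes the tumour suppressor merlin, was at 8.42 FPKM with A4368 and 10.3 FPKM in the control, and the kinase gene MAP4K4 at 109 FPKM with A4368 and 129 FPKM in the control. These values differed in both directions and by small factors.

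Genes of the STRIPAK complex, a phosphatase assembly that opposes the Hippo kinases, were similar. Of 12 measured genes, 7 were higher and 5 lower, beside 52.0% and 48.0% of all genes. The median of the list was 0.05. None was past 1.5-fold, beside 2.12% of all genes downward and 1.08% upward. Once the 50 most abundant genes were left out and the library sums made equal, 9 were higher. That scaling also moved the median of all genes from 0.01 to 0.06. The share of all genes higher at that setting is not given here. The log2 ratios of FGFR1OP2, STRN, SIKE1 and CTTNBP2NL were 0.45, 0.25, 0.24 and -0.17.

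Messengers of scaffold, junction and polarity proteins, many of which bind YAP, LATS or NF2, were mostly lower. Of 23 measured genes, 18 were lower and 5 higher, beside 48.0% and 52.0% of all genes. The median of the list was -0.16, and AMOTL2 was the gene past 1.5-fold, which 2.12% of all genes passed downward. After the scaling to equal sums 16 were lower and 7 higher. The median of the list was then -0.13, beside 0.06 over all genes. WWC1, which encodes the LATS activator KIBRA, was at 16.4 FPKM in the A4368 library and 24.2 FPKM in the control. AJUBA, which encodes a LIM protein that restrains LATS kinases, was at 50.3 FPKM with A4368 and 71.3 FPKM in the control. SCRIB, a polarity gene named after its value was seen, was higher at 26.3 FPKM with A4368 and 19.0 FPKM in the control.

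Further YAP targets were read from a list of 22 genes published as a YAP and TAZ signature of cancer cells. Of these, 18 were measured, 16 were lower and 8 passed the 1.5-fold limit downward, with a median log2 ratio of -0.42. Over all genes, 48.0% were lower and 2.12% passed that limit downward. With a pseudocount of 5, which weighs low values less, 2 signature genes passed that limit and the signature median was -0.29. The count over all genes fell as well, from 238 to 78. The signature holds 5 of the members. Without them, 11 of 13 genes were lower, 4 passed the 1.5-fold limit and the median was -0.37, beside 0.01 over all genes. TGFB2, a TGF-beta ligand gene, was at 1.07 FPKM in the A4368 library and 3.36 FPKM in the control, and NUAK2, a kinase gene, at 3.44 FPKM with A4368 and 7.35 FPKM in the control. CCDC80, a matrix protein gene, was at 2.53 FPKM with A4368 and 5.57 FPKM in the control. These 3 genes are low, and TGFB2 shares 25.9% of its sequence with other transcripts. IGFBP3, a binding protein of insulin-like growth factors, was at 12.6 FPKM with A4368 and 19.5 FPKM in the control. GADD45A and DOCK5 were the signature genes with higher values, with ratios of 0.22 and 0.17.

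A second list took 20 genes reported as YAP targets in other cells. AMOTL1 and AJUBA of this list are also counted among the scaffold genes, as is AMOTL2 of the signature. TEAD4 and VGLL3 are also counted among the coactivator and TEAD genes, so the counts of the lists are not independent. Of 19 measured, 18 were lower and 5 passed the 1.5-fold limit downward, beside 48.0% and 2.12% of all genes. The median of the list was -0.31. THBS1, which encodes the matrix protein thrombospondin 1, was at 32.5 FPKM in the A4368 library and 69.7 FPKM in the control. EDN1, the endothelin 1 gene, was at 3.49 FPKM with A4368 and 8.53 FPKM in the control. Both were lower by more than 2-fold, close to ANKRD1 in ratio. SOX9, which drives bile duct and progenitor programmes, was at 20.1 FPKM with A4368 and 41.2 FPKM in the control. JAG1, a Notch ligand gene, was at 32.9 FPKM with A4368 and 56.3 FPKM in the control. BCL2L1, a survival gene, had a ratio of -0.60, and 39.6% of its sequence is shared with other transcripts. NOTCH2 was the listed gene with a higher value, at 2.84 FPKM with A4368 and 2.46 FPKM in the control. Many of these genes answer to other pathways as well, and the lists were drawn up with earlier results of these libraries known.

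Genes regulated by actin through MRTF and SRF were listed, with the regulators SRF, MKL1 and MKL2 themselves, because part of the targets are also YAP targets. Of 16 measured genes, 14 were lower and 2, SRF and MKL2, higher, beside 48.0% and 52.0% of all genes. The median of the list was -0.34, and 1 passed the 1.5-fold limit downward, beside 2.12% of all genes. Without the 3 regulators, all 13 measured genes were lower, with a median of -0.35. The gene past 1.5-fold was ZYX, which encodes the focal adhesion protein zyxin, at 48.0 FPKM in the A4368 library and 74.6 FPKM in the control. It fell short of the limit after the scaling to equal sums, with a ratio of -0.58. CNN2, a calponin gene, was at 107 FPKM with A4368 and 155 FPKM in the control, and TPM4, a tropomyosin gene, at 124 FPKM with A4368 and 175 FPKM in the control. Of these, CNN2 and TPM4 share 25.4% and 25.5% of their sequence with other transcripts. FILIP1L had a ratio of -0.49. SRF itself had a log2 ratio of 0.07.

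**Figure D5:**
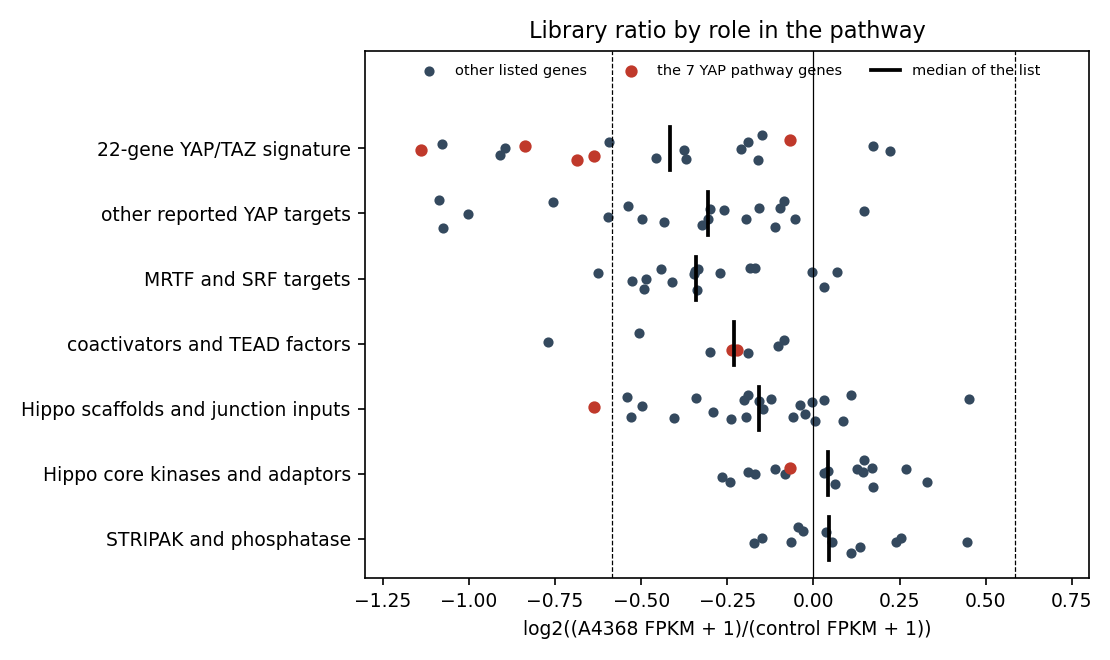
Library ratio of the genes averaging at least 1 FPKM in 7 lists, 1 point per gene spread vertically for legibility, with the 7 members in red, the median of each list as a bar and 1.5-fold as dashed lines. Genes in more than 1 list appear in each. The medians of the target lists lie at -0.42 and -0.31, and those of the kinases and STRIPAK genes at 0.04 and 0.05.

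The genes of most similar ratio were read among 8762 genes averaging at least 5 FPKM. With 2 libraries the likeness is the distance between single log2 ratios and says nothing of shared control. Nearest to ANKRD1 were ATOH8, with a ratio of -1.16 at 5.42 FPKM with A4368 and 13.4 FPKM in the control, and RGS2, with a ratio of -1.16 at 47.2 FPKM with A4368 and 107 FPKM in the control. Nearest to CTGF were FMO1, with a ratio of -0.83, and LYZ, also with -0.83.

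The label of the cell line fitted its markers, since all 12 hepatocyte and hepatoma markers had values, summing to 24615 FPKM in the A4368 library and 24901 FPKM in the control. Fibroblasts and endothelial cells also express CTGF and CYR61. Of 10 stellate cell and fibroblast markers 3 had values, LUM, PDGFRA and RGS5, summing to 14.2 FPKM with A4368 and 19.9 FPKM in the control. LUM and PDGFRA were lower with A4368, and RGS5 was higher. The collagen genes COL1A1, COL1A2 and COL3A1 had no value. None of 8 endothelial markers had a value. Of 8 leukocyte markers CD68, CD14 and LYZ had values, summing to 39.9 FPKM with A4368 and 50.1 FPKM in the control, and PTPRC had none. LYZ was at 9.48 FPKM with A4368 and 17.6 FPKM in the control, and CD68 at 27.9 and 30.0 FPKM. CD68 and LYZ share 81.25% and 39.3% of their sequence with other transcripts. The part of these markers in the differences above was not tested. In bulk RNA, fewer cells expressing a gene and less RNA per cell cannot be told apart.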

How the data were processed

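RNA-seq of 1 A4368-treated and 1 untreated Hep3B library was read from 1 table. The unit is not named in the header. Because Cufflinks appears in the submitters' processing notes, beside Bowtie2 2.2.3, TopHat2 2.0.12 and hg19, the authors' deposited values were taken as FPKM. Annotation, parameters and depth are not stated, so no interval could be given. Of 24302 lines, 11511 held values, and no gene had a mean under 0.496 FPKM. Ratios used a pseudocount of 1, which understates the change of low genes, and a mean of at least 1 FPKM, which kept 11238 genes. Folds given for single genes or sums are plain ratios. Counts past 1.5-fold or 2-fold use the ratio with the pseudocount, so a low gene can pass by plain ratio and not be counted. No test was run. The members and gene lists were chosen with earlier results of these data known. Named genes were every member, up to 4 of the largest absolute ratios and all past 1.5-fold in each list, and the 2 nearest in ratio to ANKRD1 and to CTGF. Other genes are relatives of members or exceptions in a count, named after their values were seen. A gene that the rule selects is not reported here. PALS1 was matched as MPP5 through RefSeq synonyms. Shared sequence is the percentage of distinct 31-base words found in GENCODE release 29 transcripts of other genes. Alternatives were pseudocounts of 0.1 and 5, no filter and one at 5 FPKM, centring on genes of at least 10 FPKM, and rescaling to one sum without the 50 highest genes. Python 3.11.15, numpy 2.4.6 and pandas 2.3.3 were used, and the ratios were tested on simulated data.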

Additional observations from a re-analysis of the deposited data

How the results depend on the processing

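All 7 members were lower under each of the 8 alternatives, of which the correction for GC content and length and the run without genes sharing at least 50% of their sequence were chosen after seeing the data. With a pseudocount of 5 the ratios of CYR61 and AMOTL2 were -0.58 and -0.51, so that 2 members passed 1.5-fold, and the median of the members was -0.51. The same setting left 0 scaffold genes past 1.5-fold downward in place of 1, and 2 signature genes in place of 8. Past 2-fold it left 1 signature gene in place of 2, and 0 other reported targets in place of 3. Over all genes it left 78 in place of 238 past 1.5-fold downward, and 15 in place of 49 past 2-fold. The medians of the signature and the other targets were then -0.29 and -0.15. With a pseudocount of 0.1, 4 signature genes and 102 of all genes passed 2-fold downward, and the median of the other targets was -0.44. At a mean of at least 5 FPKM fewer signature genes remained, 11 lower and 2 higher. Of them 1 passed 2-fold downward in place of 2, and over all genes 28 did in place of 49. The median of the other targets was then -0.47. Rescaling moved the median of all genes by 0.05, and 0 MRTF and SRF targets then passed 1.5-fold. The STRIPAK median was -0.00023 after correction for GC content and length. No paired analysis was possible because each group has 1 library. The depth is unknown, so the precision of low genes such as LATS2 and TGFB2 is unknown too.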
